A study of Mus musculus with 6 samples.

Results

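Metallothioneins and a set of genes that sense or move zinc were examined in whole tibialis anterior (TA) muscles in which Yap was knocked down. The set held Mt1 and Mt2, which encode the metallothioneins of most tissues, Mtf1, which encodes the zinc-sensing transcription factor MTF-1, Slc30a1, which encodes the zinc exporter ZnT1, and Slc39a14, which encodes the metal importer ZIP14. The genes were picked by symbol, with the difference between the groups already known, so that difference is described here and not tested. All 5 genes were among the 13226 in the deposited count table, and all 5 were among the 13143 genes tested, which had at least 10 counts in at least 3 libraries.

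The muscles came from male C57BL/6 mice that were injected at 8 weeks of age, 1 leg with AAV6:Yap-shRNA and the contralateral leg with a control AAV6, and were taken 7 days later, giving 3 libraries in each group. AAV6 is an adeno-associated virus used to carry genes into muscle, and a short hairpin RNA (shRNA) lowers the transcript that it matches. The labels place the Yap hairpin in a plasmid with the CMV promoter, which is active in many cell types, and eGFP. They do not say whether the control plasmid also carried eGFP. In the titles the comparison vector is described as empty, while the vector field names AAV6:LacZ-shRNA. These libraries are therefore called control, and the labels do not settle which of these control vectors was used. The TA muscles are numbered 1 to 3 in each group, and the study states that they were paired within 3 animals.

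Metallothioneins are small cysteine-rich proteins that bind zinc and copper, and their genes are among the most strongly induced by zinc in mammals. MTF-1 binds free zinc and then binds metal response elements in the promoters of Mt1, Mt2 and Slc30a1, so that a rise in zinc is met by more storage and more export. Glucocorticoids and interleukin-6 also induce Mt1 and Mt2, and interleukin-6 induces Slc39a14. In muscle, metallothionein and ZIP14 transcripts are known to rise during atrophy and cachexia.

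Library totals ranged from 11987167 to 12710393 counts. Yap1 was counted 915, 781 and 833 times in control muscles and 381, 311 and 495 times with Yap-shRNA, and all 3 Yap-shRNA libraries lay below all 3 control libraries. The 8 muscle fibre markers summed to 159817 to 176717 CPM in control and 149151 to 177931 CPM in Yap-shRNA libraries. CPM are counts scaled to a common library size with edgeR's TMM factors. Their log2 fold change was below 0 for all 8, from -0.17 to -0.0022 with a median of -0.060, and the groups overlapped for each. Over all genes tested, 48.9% had a log2 fold change above 0. Liver transcripts stood out in some libraries. The 7 liver markers tested summed to 3.42, 55.0 and 445.2 CPM in control 1 to 3 and to 17.7, 41.6 and 4.07 CPM in Yap-shRNA 1 to 3, with Apoa1 and Fgb at 0 counts in control 1 and Yap-shRNA 3. Tendon markers (5 tested) were highest in control 1 (639.2 CPM) and Yap-shRNA 3 (529.3 CPM), against 126.2 to 173.8 CPM in the other libraries, and the 5 adipocyte markers tested were highest in Yap-shRNA 3 (90.5 CPM, against 14.2 to 25.7 CPM).

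Mt1 and Mt2 lie side by side on the plus strand of chromosome 8 of GRCm38. Mt2 (ENSMUSG00000031762, chr8:94172664-94173568) ends 5513 bases before Mt1 (ENSMUSG00000031765, chr8:94179082-94180327) begins, and Mt3 and Mt4 lie upstream in the same cluster. Each has 3 exons in its principal transcript, of 549 nucleotides for Mt1 and 511 for Mt2. The longest run of bases that the Mt1 and Mt2 principal transcripts share is 20 nucleotides, and no other annotated gene shares a stretch of 50 nucleotides with either transcript. At 25 nucleotides, Mt1 shares stretches with 1 other gene (Mt3) and Mt2 with 1 (Pip5k1a). An exon of Gm45774 overlaps Mt2 on the opposite strand, and how the counting treated strand is not given in the sources used here. The other members lie on chromosomes 4 (Mtf1, ENSMUSG00000028890, chr4:124802104-124849800), 1 (Slc30a1, ENSMUSG00000037434, chr1:191906767-191913247) and 14 (Slc39a14, ENSMUSG00000022094, chr14:70303469-70351425). Mtf1 and Slc30a1 also have exons that overlap a gene on the opposite strand (1110065P20Rik and 1700034H15Rik).

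The sequences upstream of Mt1 and Mt2 are shown because both genes varied together between libraries and are textbook targets of MTF-1. Sequences and starts come from RefSeq (GRCm38.p6), whose table matched 4 of the 5 genes, all but Slc39a14. The 250 bases before the RefSeq start are given 5′ to 3′, with capitals marking the core of the metal response element, searched as TGCACNC and TGCGCNC on both strands. A given stretch of a strand can match only one of these letter strings. A core on the minus strand appears as its reverse complement.
Mt1 chr8:94178839-94179088 (+): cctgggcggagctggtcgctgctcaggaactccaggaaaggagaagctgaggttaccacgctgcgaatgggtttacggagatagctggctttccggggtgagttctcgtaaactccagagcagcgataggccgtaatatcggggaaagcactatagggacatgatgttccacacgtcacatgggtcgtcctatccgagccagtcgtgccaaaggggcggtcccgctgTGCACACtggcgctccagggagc
Mt2 chr8:94172368-94172617 (+): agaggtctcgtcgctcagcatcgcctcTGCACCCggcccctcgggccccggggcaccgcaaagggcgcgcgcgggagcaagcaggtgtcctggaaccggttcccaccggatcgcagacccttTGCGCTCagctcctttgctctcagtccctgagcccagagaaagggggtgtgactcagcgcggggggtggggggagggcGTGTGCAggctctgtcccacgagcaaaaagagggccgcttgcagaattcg

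Over the whole window of 300 bases (250 before and 50 after the start), Mt2 held 4 cores, Mt1 held 3, Slc30a1 held 2 and Mtf1 held 0. Of 32851 such windows in the table, 25.7% held at least 1 core, 7.11% at least 2 and 1.97% at least 3. The first exons of the principal GENCODE transcripts begin upstream of a TATAAA string, which lies 101 bases before the start codon of Mt1 and 95 bases before that of Mt2, so these exons were searched as well, up to the start codon. Window and exon together gave 5 cores for Mt1 and 7 for Mt2, and no share over other genes was computed for this longer stretch. Each is shown with 6 bases on either side, on the plus strand, at the position of its core.
Mt1 chr8:94179066-94179072 (+): ccgctgTGCACACtggcgc
Mt1 chr8:94179091-94179097 (+): gagctcTGCACTCcgcccg
Mt1 chr8:94179109-94179115 (+): gaaaagTGCGCTCggctct
Mt1 chr8:94179173-94179179 (-): cctgctGGGTGCAaaccct
Mt1 chr8:94179187-94179193 (+): acccttTGCGCCCggactc
Mt2 chr8:94172395-94172401 (+): cgcctcTGCACCCggcccc
Mt2 chr8:94172490-94172496 (+): acccttTGCGCTCagctcc
Mt2 chr8:94172568-94172574 (-): gagggcGTGTGCAggctct
Mt2 chr8:94172622-94172628 (-): cgggtcGTGCGCAggccca
Mt2 chr8:94172676-94172682 (-): aagggcGTGTGCAggcggc
Mt2 chr8:94172695-94172701 (-): gggggcGCGTGCAtggtgc
Mt2 chr8:94172729-94172735 (+): agctttTGCGCTCgaccca
Slc30a1, the other MTF-1 target of the set, was searched in its window alone and held both of its cores on the minus strand.
Slc30a1 chr1:191906738-191906744 (-): ggttccGAGTGCAaagcaa
Slc30a1 chr1:191906811-191906817 (-): cgggccGAGCGCAgtcgcc

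The core nearest to the start codon was a TGCGCNC string in both metallothionein genes, 124 bases upstream in Mt1 and 119 bases upstream in Mt2. These matches describe letters and were not tested for binding by MTF-1.

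Mt2 had the widest range of the set. It was counted 175, 48 and 37 times in control 1 to 3 and 132, 450 and 609 times in Yap-shRNA 1 to 3. Scaled for library size, Mt2 stood at 13.6, 4.02 and 3.04 CPM in control libraries and at 11.1, 34.6 and 48.6 CPM in Yap-shRNA libraries. Yap-shRNA 2 and 3 lay above every control library, while Yap-shRNA 1 lay below control 1, so the groups overlapped. The mean was 6.89 ± 5.85 CPM (SD, n = 3) in control muscles against 31.4 ± 18.9 CPM (SD, n = 3) after knockdown. This is a log2 fold change of 2.18 (standard error 0.59), or 4.52-fold. Of the 13143 genes tested, only 3 had a higher log2 fold change. The spread within each group was also wide, with a coefficient of variation of 84.9% in control and 60.3% in Yap-shRNA libraries. Counting error alone is 16.4% for the lowest Mt2 count of 37.

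Mt1 followed the same direction with a smaller difference. It was counted 224, 229 and 142 times in control 1 to 3 and 224, 556 and 482 times in Yap-shRNA 1 to 3. On the CPM scale Mt1 stood at 17.4, 19.2 and 11.7 in control libraries and at 18.8, 42.7 and 38.4 in Yap-shRNA libraries. Yap-shRNA 2 and 3 were again above all controls, and Yap-shRNA 1 lay within the control range, below control 2. The means were 16.1 ± 3.93 CPM (SD, n = 3) and 33.3 ± 12.7 CPM (SD, n = 3), a log2 fold change of 1.05 (standard error 0.29), or 2.07-fold, which 19 of the genes tested exceeded.

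**Figure D1:**
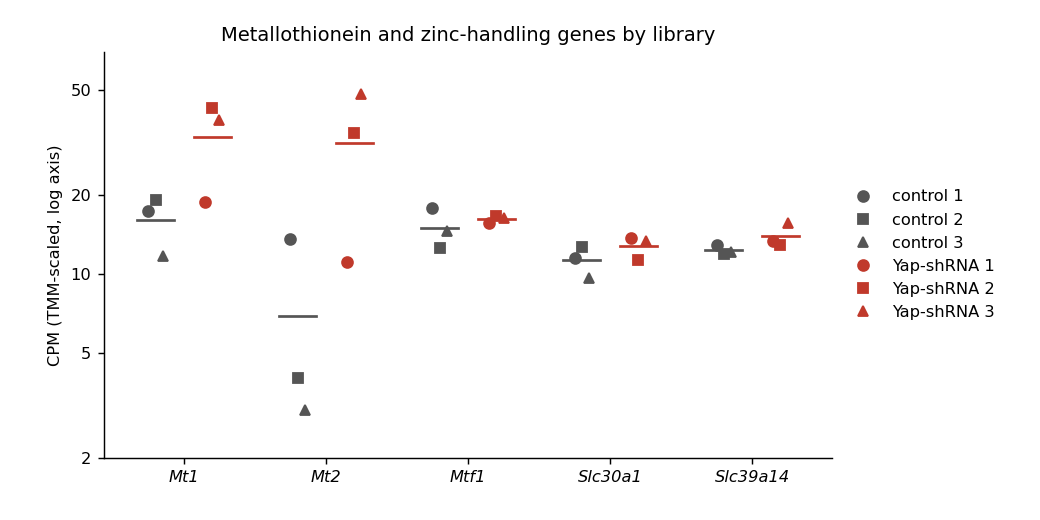
CPM of the 5 genes (log axis, TMM-scaled) in each of the 3 control (grey) and 3 Yap-shRNA (red) libraries, with symbols for the library number and bars for group means. Mt1 and Mt2 were high in Yap-shRNA 2 and 3, with Yap-shRNA 1 among the controls, while Mtf1, Slc30a1 and Slc39a14 lay between 9.69 and 17.8 CPM in all 6 libraries.

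The 2 metallothionein transcripts did not keep a fixed proportion. Counted Mt1 exceeded Mt2 by 1.28-fold, 4.77-fold and 3.84-fold in control 1 to 3, and by 1.70-fold and 1.24-fold in Yap-shRNA 1 and 2, whereas in Yap-shRNA 3 the ratio of Mt1 to Mt2 was 0.791. The libraries with the highest ratios, control 2 and 3, were those with the lowest Mt2. Their sum was 31.0, 23.2 and 14.7 CPM in control 1 to 3 and 29.9, 77.2 and 87.0 CPM in Yap-shRNA 1 to 3, so control 1 lay above Yap-shRNA 1 in the sum as well. Across the 6 libraries the log2 CPM of Mt1 and Mt2 had a Pearson correlation of 0.90, given as a description of libraries that share their groups.

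Levels of different genes were compared as CPM per kilobase of the principal transcript. For Mt1 and Mt2 this length takes in the exon bases before the TATAAA string, and no other length was used. On this scale Mt1 was the most abundant of the set in control muscles, at 29.3 ± 7.15 (SD, n = 3), followed by Mt2 at 13.5 ± 11.4. Mt2 in control 1 lay within the range of Mt1, and Mt2 in control 2 and 3 lay below it. In Yap-shRNA muscles the 2 genes were level, at 60.7 ± 23.2 for Mt1 and 61.4 ± 37.1 for Mt2. Next came Mt3, the metallothionein best known from brain, at 2.87 ± 1.16 CPM per kilobase in control muscles, Slc39a14 at 2.51 ± 0.10, Slc30a1 at 2.15 ± 0.28 and Mtf1 at 1.96 ± 0.35. Mt3 and Slc39a14 did not differ beyond their spread, nor did Slc30a1 and Mtf1. The order of these 4 was kept in Yap-shRNA muscles, at 3.44 ± 2.13, 2.83 ± 0.30, 2.44 ± 0.25 and 2.12 ± 0.071. Mt3 had 10 to 41 counts in a library and a log2 fold change of 0.27 (standard error 0.47), smaller than its error. Mt4, a metallothionein of stratified epithelium, was not among the genes analysed here.

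Mtf1, the regulator, was counted 229, 150 and 177 times in control 1 to 3 and 186, 217 and 205 times in Yap-shRNA 1 to 3, that is 17.8, 12.5 and 14.5 CPM against 15.6, 16.7 and 16.4 CPM. Control 1 was the highest and control 2 the lowest of all 6 libraries, with the Yap-shRNA libraries between them. The log2 fold change was 0.11 (standard error 0.15), less than the error. Slc30a1, whose product ZnT1 exports zinc across the cell membrane, had 148, 151 and 118 counts in control and 164, 147 and 168 in Yap-shRNA libraries. These gave 11.5, 12.6 and 9.69 CPM against 13.8, 11.3 and 13.4 CPM, and the groups overlapped through Yap-shRNA 2. Its log2 fold change was 0.18 (standard error 0.15).

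Slc39a14, whose product ZIP14 takes up zinc, iron and manganese, was the steadiest of the set in control muscles. Its counts were 166, 143 and 148 in control 1 to 3, or 12.9, 12.0 and 12.2 CPM. In Yap-shRNA 1 to 3 it had 159, 168 and 196 counts, or 13.3, 12.9 and 15.6 CPM, with Yap-shRNA 3 the highest and Yap-shRNA 2 just under control 1. Its log2 fold change came to 0.18 (standard error 0.13).

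In the fit across all genes (quasi-likelihood test of edgeR, adjusted by Benjamini-Hochberg), 0 of the 5 genes had an adjusted p under 0.05, as did 0% of all 13143 genes tested, of which 212 had an unadjusted p under 0.05. DESeq2 and edgeR's likelihood ratio test each called 5 genes, Yap1 among them and none of the set, and limma-voom called 0. For none of the 5 genes were all Yap-shRNA libraries above or below all controls, a pattern that 2.53% (above) and 2.72% (below) of all genes tested showed. As the genes were picked with these values known, nothing is read from the shares.

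All 5 genes kept a log2 fold change above 0 with each library left out in turn. Without control 1, which had the highest control level of Mt2, the log2 fold change of Mt2 was 3.16, and without Yap-shRNA 3 it was 1.72. For Mt1 it ranged from 0.83 without Yap-shRNA 2 to 1.33 without Yap-shRNA 1. Mtf1 ranged from 0.0026 without control 2 to 0.26 without control 1, Slc30a1 from 0.086 to 0.27 and Slc39a14 from 0.088 to 0.23.

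**Figure D2:**
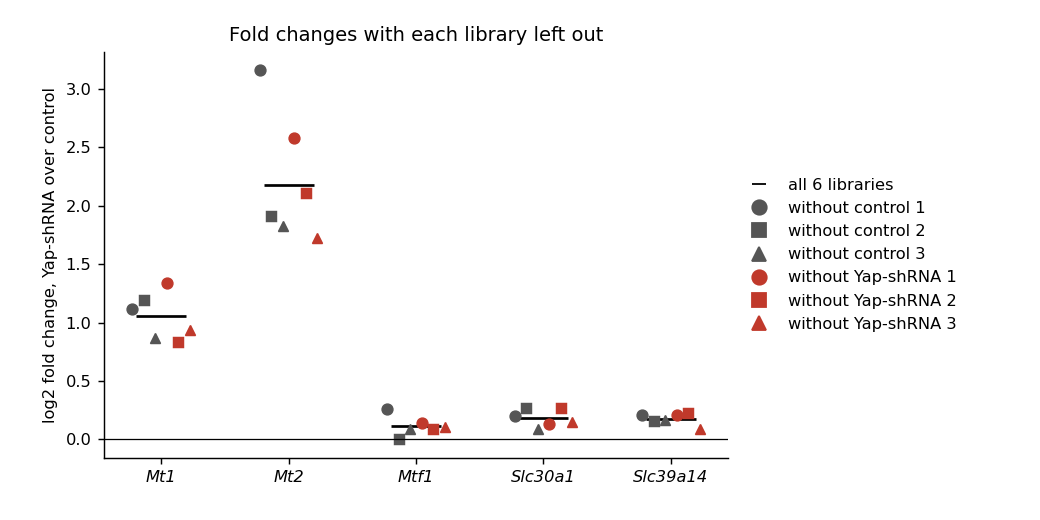
Log2 fold change of Yap-shRNA over control (y axis) for each gene, with all 6 libraries (bar) and with 1 library left out (points, grey for a control and red for a Yap-shRNA library). Mt2 moved from 1.72 to 3.16 and Mt1 from 0.83 to 1.33, and the other 3 genes stayed between 0.0026 and 0.27.

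The other zinc transporters had smaller log2 fold changes than Mt1 and Mt2, which were picked with their difference known. Of 24 listed transporters (10 ZnT exporters, which move zinc out of the cytosol, and 14 ZIP importers, which move it in), 17 were tested, Slc30a1 and Slc39a14 included. By edgeR's quasi-likelihood test 0 were called higher and 0 lower, beside 0% of all 13143 genes tested. In that fit Yap1 was not called either (adjusted p 0.33). Of the transporters 0 had an unadjusted p under 0.05, beside 212 of all genes tested. DESeq2, the likelihood ratio test and limma-voom also called 0 of the transporters outside the set. Log2 fold changes were above 0 for 9 and below 0 for 8, with a median of 0.085, against 48.9% above 0 and a median of -0.0028 over all genes tested. The exporters had a median of -0.026 (7 tested). Apart from Slc30a1, the exporter with the greatest difference was Slc30a2, which encodes a vesicular transporter, at 21.0 ± 7.05 CPM in control muscles against 18.5 ± 6.20 CPM after knockdown (SD, n = 3). Its log2 fold change was -0.18 (standard error 0.28). The importers had a median of 0.18 (10 tested). Among them Slc39a6 stood at 2.37 ± 0.51 CPM in control muscles against 3.62 ± 1.20 CPM after knockdown (SD, n = 3), with a log2 fold change of 0.61 (standard error 0.30). Slc39a10, which MTF-1 is described to repress, stood at 4.92 ± 1.25 against 5.98 ± 1.18 CPM (SD, n = 3), with a log2 fold change of 0.28 (standard error 0.23). The groups overlapped in each of these 3 genes. Of the 17 transporters, 1 lay above all controls in all Yap-shRNA libraries and 1 below, patterns that 2.53% and 2.72% of all genes tested showed. Slc30a6, a ZnT exporter gene of the secretory pathway, was lower, at 7.80 ± 0.42 CPM against 6.96 ± 0.26 CPM (SD, n = 3), with a log2 fold change of -0.16 (standard error 0.15). Slc39a1, a ZIP importer of the cell membrane, was higher, at 29.6 ± 1.16 CPM against 32.9 ± 1.81 CPM (SD, n = 3), with a log2 fold change of 0.15 (standard error 0.10). The 10 importers summed to 131.1 to 135.0 CPM in control and 142.2 to 147.1 CPM in Yap-shRNA libraries, and the 7 exporters to 154.2 to 182.4 and 160.8 to 169.5 CPM. The summed levels of the importers did not overlap between groups, while those of the exporters did. The NRF2 list did not overlap either (271.7 to 292.7 against 299.1 to 335.9 CPM). The MTF-1 list with its members of the set lay at 125.4 to 157.3 against 157.7 to 225.5 CPM, without overlap. Without those members it summed to 96.9, 96.4 and 86.5 CPM in control 1 to 3. In Yap-shRNA 1 to 3 it then summed to 98.5, 86.3 and 108.8 CPM, and the groups overlapped. The sums of the metallothionein, copper, iron, glucocorticoid-responsive and interleukin-6 lists and of each cell type list overlapped between groups. How often sums of gene lists beyond these lie apart was not computed. These sums were not tested.

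**Figure D3:**
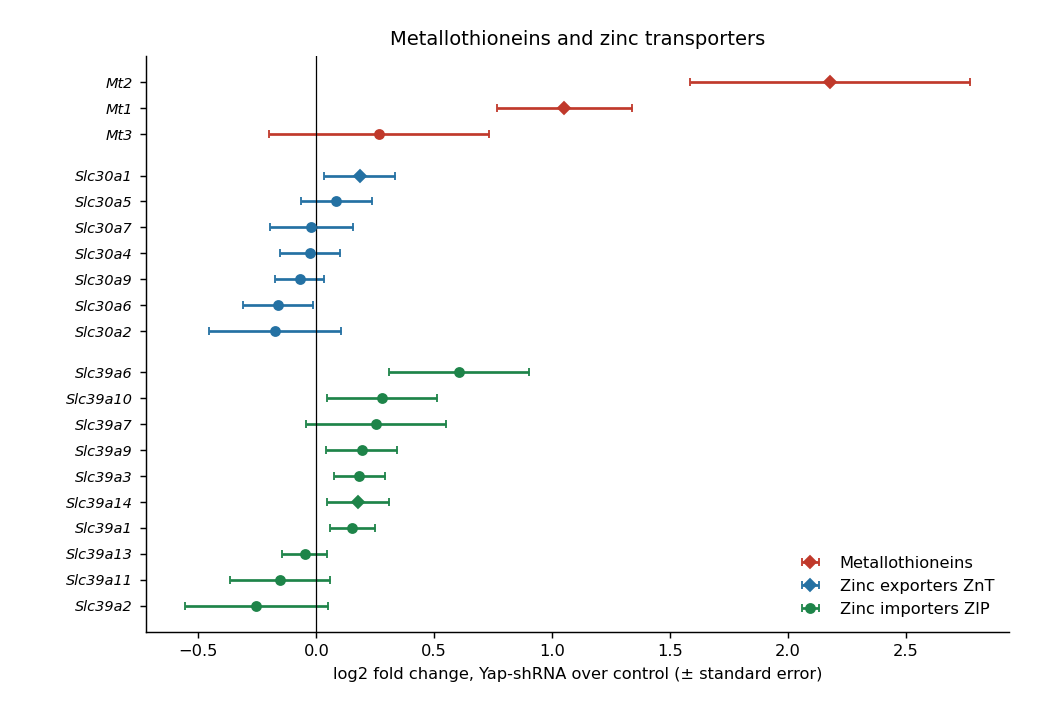
Log2 fold change of Yap-shRNA over control with its standard error (x axis) for the tested metallothioneins (red), ZnT exporters (blue) and ZIP importers (green), with diamonds for genes of the set. The transporters lay between -0.25 and 0.61, below Mt1 at 1.05 and Mt2 at 2.18, which were picked with their difference known.

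Beyond Mt1, Mt2, Mtf1 and Slc30a1, 7 genes described as targets of MTF-1 were tested. None was called, beside 0% of all 13143 genes tested. Their log2 fold change was above 0 for 6 and below 0 for 1, with a median of 0.16, beside 48.9% above 0 over all genes tested. The largest was 0.31 for Cebpa, a transcription factor gene of fat and liver, with a standard error of 0.30. Of 9 copper-handling genes tested, 0 were called and 0 had an unadjusted p under 0.05, and the median was -0.057. Over all genes tested these counts were 0 and 212. Cox17, which encodes a copper chaperone of cytochrome oxidase, had a log2 fold change of -0.18 (standard error 0.18), and Atp7a, a copper pump gene, -0.14 (standard error 0.63) at 3 to 39 counts. Of 9 iron-handling genes tested, 0 were called and 0 had an unadjusted p under 0.05, with a median of -0.00071. Ireb2, which encodes an iron regulatory protein, was at -0.21 (standard error 0.11), and Tfrc, the transferrin receptor gene, at -0.15 (standard error 0.11).

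Genes of other signals that act on Mt1 and Mt2, or respond to oxidative stress, were also counted. Over all 13143 genes tested, 0 were called, 212 had an unadjusted p under 0.05 and 48.9% had a log2 fold change above 0. The median was -0.0028, and 2.53% had all Yap-shRNA libraries above all controls. The counts of each list, and genes whose groups did not overlap, are to be read beside these values. Of 11 glucocorticoid-responsive genes tested none was called, 1 had an unadjusted p under 0.05, and the median log2 fold change was 0.026. That gene was Cdkn1a, which encodes the cell cycle inhibitor p21, at 34.3 ± 4.95 CPM in control muscles against 51.4 ± 10.9 CPM after knockdown (SD, n = 3). Its log2 fold change was 0.58 (standard error 0.16), with all Yap-shRNA libraries above all controls. Cebpd, a transcription factor gene, was at 0.40 (standard error 0.28).

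Of 11 genes of the interleukin-6 and STAT3 response tested, none was called, 10 had a log2 fold change above 0, 2 had an unadjusted p under 0.05, and the median was 0.26. Junb, which encodes a subunit of AP-1, had 168, 146 and 143 counts in control 1 to 3 and 247, 219 and 309 in Yap-shRNA 1 to 3, with no overlap between groups and a log2 fold change of 0.75 (standard error 0.15). Socs3, which encodes the feedback inhibitor of this pathway, had 81, 49 and 51 counts in control and 63, 132 and 154 in Yap-shRNA libraries, a log2 fold change of 0.92 (standard error 0.31). As for Mt2, control 1 lay above Yap-shRNA 1 for Socs3, and Yap-shRNA 2 and 3 were the highest.

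Of 9 NRF2 response genes tested none was called, 8 had a log2 fold change above 0, 1 had an unadjusted p under 0.05, and the median was 0.11. Hmox1, which encodes heme oxygenase, had 462, 97 and 110 counts in control 1 to 3 and 209, 516 and 436 in Yap-shRNA 1 to 3, a log2 fold change of 0.79 (standard error 0.51). Control 1 was again far above the other controls. Srxn1, which encodes sulfiredoxin, had 334, 370 and 330 counts in control and 352, 535 and 601 in Yap-shRNA libraries, a log2 fold change of 0.50 (standard error 0.17), and its groups overlapped through Yap-shRNA 1, as those of Mt1 did.

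The genes whose log2 CPM followed each member most closely over the 6 libraries were found by Pearson correlation among all genes tested. For Mt2 these were Csf1 (0.99), which encodes macrophage colony-stimulating factor, Fosl1 (0.99), which encodes the AP-1 subunit FRA-1, and Klf4 (0.98), a transcription factor gene. Fosl1 stood at 1.56, 1.09 and 0.739 CPM in control 1 to 3 and at 1.51, 2.46 and 2.87 CPM in Yap-shRNA 1 to 3, which is the same order of libraries as for Mt2. Csf1 stood at 16.7, 11.4 and 10.8 CPM and at 15.2, 18.9 and 23.5 CPM. For Mt1 they were Galnt11 (0.99), Nolc1 (0.98) and Gm6944 (0.97). For Mtf1 they were Gm38077, Fat4 and Chuk (each 0.99), for Slc30a1 Dgcr2 (0.99), Tdpx-ps1 (0.98) and Syp (0.98), and for Slc39a14 Gmps (0.99), Ces2g (0.99) and Txlna (0.98). With 6 libraries such values are common: 131 other genes reached 0.9 with Mt2, 77 with Mt1 and 361 with Mtf1.

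**Figure D4:**
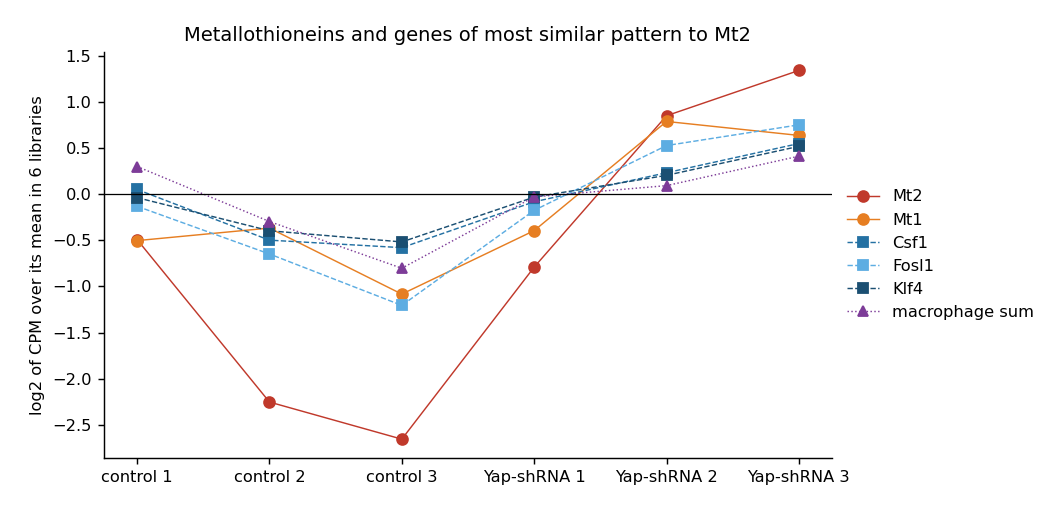
Log2 of each gene's CPM over its mean in the 6 libraries (y axis), by library (x axis), for Mt2, Mt1, the 3 genes most correlated with Mt2 and the sum of 10 macrophage markers; lines only help to follow a gene. Control 2 and 3 lay below and Yap-shRNA 2 and 3 above the mean for all of them, and Mt2 had the widest range, 16.0-fold from its lowest to its highest library.

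Markers of other cell types moved with some of these values. In bulk muscle, fewer cells of a type and less RNA per cell cannot be told apart. The 10 macrophage markers, all tested, summed to 136.9, 90.5 and 63.7 CPM in control 1 to 3 and to 109.0, 118.5 and 147.9 CPM in Yap-shRNA 1 to 3. All 10 had a log2 fold change above 0, none was called, and the median was 0.34. Over all genes tested, 48.9% were above 0, 0% were called and the median was -0.0028. The order of libraries by this sum differed from the order by Mt2 only in that control 1 lay above Yap-shRNA 2, and its highest and lowest library differed by less than those of Mt2. Of 5 neutrophil markers 1 was tested, at 0.41 to 1.40 CPM in control and 0.72 to 1.09 CPM in Yap-shRNA libraries. The part of immune cells in the metallothionein values was not tested.

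Liver expresses both metallothioneins, and control 3, with the highest sum of liver markers, had the lowest Mt1 and Mt2 of all libraries. The part of liver RNA in the metallothionein values was not tested. Control 1 and Yap-shRNA 3, where Apoa1 and Fgb were at 0, had the highest Mt2 of their groups. The same libraries had the highest fibroblast sums of their groups. In control 1 to 3 these were 1956, 1187 and 1002 CPM, and in Yap-shRNA 1 to 3 they were 1186, 1184 and 2227 CPM. Their tendon sums, 639.2 and 529.3 CPM, were also the highest of their groups. The summed adipocyte and fibroblast markers were highest in Yap-shRNA 3 (90.5 and 2227 CPM), and the tendon sum was second there. In Yap-shRNA 2, where Mt1 was highest, the adipocyte, fibroblast and tendon sums were 16.9, 1184 and 144.7 CPM. The endothelial sums were 350.5 to 412.1 CPM in control and 367.9 to 400.1 CPM in Yap-shRNA libraries. The part of adipocytes, fibroblasts and tendon in the values of control 1 and Yap-shRNA 3 was not tested. Without Yap-shRNA 3 the log2 fold change of Mt2 was 1.72, and without control 1 it was 3.16.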

How the data were processed

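Poly(A)-selected RNA of 6 TA muscles was sequenced with Illumina TruSeq libraries. The deposited table holds whole-number counts for each gene, which the authors had not normalised. The submitters' processing notes name bcl2fastq 2.20.0.422 and the build GRCm38, while the aligner, counter, strand setting and annotation are not given in the sources used here. The table held no gene with fewer than 60 counts over the 6 libraries. Columns were matched to samples by name.

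Genes with at least 10 counts in at least 3 libraries (13143 of 13226) were scaled by TMM and fitted with edgeR 4.0.16 by its quasi-likelihood test, with no term but the group, in R 4.3.3, and p-values were adjusted by Benjamini-Hochberg over all genes at a threshold of 0.05. Standard errors were the log2 fold change over the square root of the test statistic. DESeq2 1.42.0 and limma 3.58.1 (voom) were used as alternatives, and all 4 tests were first tested on simulated data. Correlations used log2 CPM (prior count 2). Gene positions and lengths came from GENCODE M21 (GRCm38). Selenoh was matched by its Ensembl identifier as 2700094K13Rik. Hamp did not pass the count filter, nor did 2 liver markers and 1 adipocyte marker.

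Named genes were the 5 members, Yap1, the 2 genes of each list with the greatest absolute change, those called, and the 3 genes most correlated with each member. Mt3, Slc30a6, Slc39a1, the marker genes, the overlapping genes and the genes under other settings were named outside that rule, after their values were seen. The members and lists were chosen with earlier results of these data known. Totals of 11987167 to 12710393 counts set the precision, and percentages given as counting error cover that error alone. P-values set the difference between groups against the spread between these muscles, and the main fit held no term for the animal.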

Additional observations from a re-analysis of the deposited data

How the results depend on the processing

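All 5 genes kept a log2 fold change above 0, and none was called, under limma-voom, DESeq2, edgeR's likelihood ratio test, library size alone, upper-quartile factors, no count filter, at least 10 counts in every library, the replicate block, and with each library left out. Over the settings that kept all libraries, log2 fold changes were 1.00 to 1.07 for Mt1, 2.16 to 2.25 for Mt2, 0.11 to 0.13 for Mtf1, 0.18 to 0.20 for Slc30a1 and 0.17 to 0.19 for Slc39a14. The adjusted p of Mt1 depended on the tool. It was 0.999982 in the main quasi-likelihood fit, 0.999928 by limma-voom, 0.41 by the likelihood ratio test and 0.055 by DESeq2. For Mt2 it was 0.999982, 0.999928, 0.39 and 0.999988 in the same order. As Mt1 and Mt2 were picked with their difference known, nothing is read from these values. Over all genes tested, the main fit with all libraries called 0, as did limma-voom and the changes of scaling, filter and block. DESeq2 called 5 (4 higher) and the likelihood ratio test 5 (3 higher). With each library left out, 0 to 2 were called (2 without control 1, Ankrd1 and Rrad, and 1 without Yap-shRNA 3, Mir155hg). The cause was not tested. Of the listed zinc and copper genes outside the set, 0 were called under any of these settings.

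When muscles with the same number were paired (replicate block), 0 genes were called, and the log2 fold changes were 1.00 for Mt1 (standard error 0.25) and 2.16 for Mt2 (standard error 0.68). The study states that muscles were paired within animals but not that a number marks an animal. Deviations of same-numbered libraries from their group means had correlations across genes of -0.062, 0.22 and -0.27, and 2 of 6 libraries correlated best with their own number. The highest count of Mt2, 609, limits its counting error to 4.05%, and the lowest, 37, to 16.4%. What set the rest of the spread was not tested.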
